A study of Mus musculus with 2 samples.

Results

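The 4 genes of the ATP-sensitive potassium (KATP) channel, Kcnj8, Abcc9, Kcnj11 and Abcc8, were taken by symbol from a table of 32531 genes. Ribosome-bound RNA had been purified from the cerebral cortex of untreated adult Gdnf-EGFP/Rpl10a mice, line ES2243. In this line an EGFP-tagged ribosomal protein, Rpl10a, follows the regulatory sequences of Gdnf, and tagged polysomes are pulled from homogenate with anti-EGFP antibodies (translating ribosome affinity purification, TRAP). The series describes the profiled cells as pericytes. Both libraries, IP1 and IP2, were immunopurified samples of 1 group. Whether they stem from separate or pooled animals is not in the labels, so SDs may measure technical spread only. The p-values measure no spread between the libraries, since they hold counting error or a spread that was assumed. Unpurified cortex was not analysed here, so the values are levels and not enrichments. Levels are given in CPM (counts per 1e6 reads counted in genes), as mean ± SD over n = 2 libraries, which held 65200231 and 72732502 counted reads.

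A KATP channel is a ring of pore subunits, each bound to a sulfonylurea receptor. ATP closes the pore, and magnesium-bound ADP, sensed by the receptor, opens it, so that the channel ties membrane potential to metabolism. Kcnj8 encodes the pore Kir6.1 and Abcc9 the receptor SUR2, the pair known from vascular smooth muscle and pericytes, where opening hyperpolarizes the cell and relaxes it. Kcnj11 encodes the pore Kir6.2 and Abcc8 the receptor SUR1, the pair known from neurons and pancreatic beta cells, where closing depolarizes the cell and, in beta cells, leads to insulin release. Activating mutations of either vascular gene cause Cantú syndrome in people, with dilated and tortuous vessels. Splicing of the last exon gives 2 forms of the SUR2 receptor, which counts per gene do not separate.

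Kcnj8 and Abcc9 lie side by side on chromosome 6 (mm10, 142564837 to 142571614 and 142587862 to 142702766), 16247 bases apart. Kcnj11 and Abcc8 lie side by side on chromosome 7 (46097123 to 46100952 and 46104523 to 46180039), 3570 bases apart. RefSeq promoters (GRCm38.p6, from 250 bases before to 50 after a start) matched 2 of the 4 genes, Kcnj8 and Abcc9, whose reads differed between the libraries in the same direction. Both are shown from the minus strand, 5′ to 3′, in lower case, with capitals for matches to the core of RBPJ, the factor through which Notch receptors act, and to the site of MEF2, a muscle and neuronal factor.
Kcnj8, chr6:142571565-142571864: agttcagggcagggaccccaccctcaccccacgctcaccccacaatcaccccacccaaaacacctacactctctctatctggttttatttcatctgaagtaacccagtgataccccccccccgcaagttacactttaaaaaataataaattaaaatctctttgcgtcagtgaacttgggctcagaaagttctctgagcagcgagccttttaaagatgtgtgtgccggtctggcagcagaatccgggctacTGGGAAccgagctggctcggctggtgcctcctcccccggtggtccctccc
Abcc9, chr6:142702225-142702524: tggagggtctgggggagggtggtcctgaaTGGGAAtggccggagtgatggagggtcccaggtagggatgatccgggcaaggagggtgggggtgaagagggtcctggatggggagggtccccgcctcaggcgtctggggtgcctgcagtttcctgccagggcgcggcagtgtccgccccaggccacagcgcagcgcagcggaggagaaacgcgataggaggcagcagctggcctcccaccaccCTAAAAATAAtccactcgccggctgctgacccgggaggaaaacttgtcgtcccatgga

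The RBPJ core TGGGAA occurred once in each window, at bases 1 to 6 after the start of Kcnj8 and at -221 to -216 of Abcc9. It was present in 25.6% of all 32851 RefSeq promoter windows of this length, counting both strands. The MEF2 site spanned -8 to 2 in Abcc9 only, and 3.19% of all windows held one. Positions in Abcc9 count from a start within the gene span, since the whole window lies inside that span, which ends at 142702766. An E box (CANNTG) stood in each window and in 72.3% of all windows. Kcnj8 alone held, on the reverse strand, the T-box core AGGTGT (13.7% of all windows) and a hypoxia response core, ACGTG or GCGTG (43.8%), and Abcc9 alone a GC box, GGGCGG (35.7%). Neither held a CArG box, TATAAA, the FOX core TGTTTA or the cAMP response element TGACGTCA. None of the matches overlapped another. GC content was 53.3% in Kcnj8 and 65.7% in Abcc9, against a median of 52.7% over all windows. These matches are descriptions of letters, and the 10 motifs were chosen after the windows were read.

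The vascular pair supplied nearly all reads of the channel. Abcc9, the receptor gene, had 21513 reads in IP1 (330.0 CPM, exact 95% Poisson interval 326 to 334) and 41555 in IP2 (571 CPM, 566 to 577), a mean of 451 ± 171 CPM. Kcnj8, the pore gene, had 13179 reads in IP1 (202 CPM, 199 to 206) and 21935 in IP2 (302 CPM, 298 to 306), a mean of 252 ± 70.3 CPM. Both were higher in IP2, by far more than the counting intervals. Kcnj11, the other pore gene, had 1026 reads in each library, which is 15.7 CPM in IP1 (14.8 to 16.7) and 14.1 CPM in IP2 (13.3 to 15.0). Abcc8, the other receptor gene, had 214 reads in IP1 (3.28 CPM, 2.86 to 3.75) and 190 in IP2 (2.61 CPM, 2.25 to 3.01). For these 2 genes the intervals of the libraries overlapped. All intervals cover counting error only, and PCR copies counted as reads would make them too narrow. A count of 0 would have allowed up to 0.046 CPM in IP1 and 0.041 in IP2, so all 4 genes were detected. Kcnj8, Abcc9 and Kcnj11 reached 10 CPM in both libraries, as did 28.3% of all genes listed, and Abcc8 did not.

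**Figure D1:**
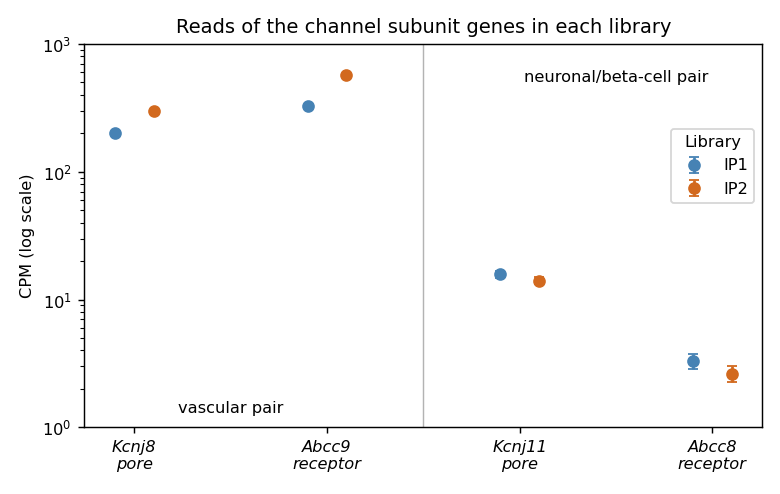
CPM of the 4 channel genes on a log axis, 1 point per library, with exact 95% Poisson intervals (smaller than the points for the vascular pair). Kcnj8 and Abcc9 sit between 202 and 571 CPM and higher in IP2, while Kcnj11 and Abcc8 sit between 2.61 and 15.7 CPM.

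By reads, Abcc9 ranked 487 of all genes in IP1 and 161 in IP2, and Kcnj8 ranked 1019 and 561. Kcnj11 ranked 8368 and 8605, and Abcc8 12110 and 12414. The order Abcc9, Kcnj8, Kcnj11, Abcc8 was the same in both libraries, and no neighbours in it overlapped in CPM. Kcnj8 and Abcc9 together took 96.5% of the reads of the 4 genes in IP1 (exact 95% Clopper-Pearson interval 96.4 to 96.7%) and 98.1% in IP2 (98.0 to 98.2%). The reads of a gene grow with the length of its transcript, so this is a share of reads and not of molecules.

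Like subunits were then compared per length. Exon and coding lengths were not used here, and the length at hand was the span of the gene, introns included. Kcnj8 spans 6.78 kb and Kcnj11 3.83 kb. Per kb of span, the Kcnj8 level was 29.8 CPM in IP1 and 44.5 in IP2, against 4.11 and 3.68 CPM for Kcnj11. The pore ratio per kb of span was therefore 7.26 in IP1 and 12.1 in IP2, a log2 ratio of 3.23 ± 0.52 (SD, n = 2). Without length, the ratio of reads was 12.8 in IP1 (12.1 to 13.7) and 21.4 in IP2 (20.1 to 22.8), a log2 ratio of 4.05. Abcc9 spans 115 kb and Abcc8 75.5 kb. Per kb of span, the Abcc9 level was 2.87 CPM in IP1 and 4.97 in IP2, against 0.043 and 0.035 CPM for Abcc8. The receptor ratio per kb of span was 66.1 in IP1 and 144 in IP2, a log2 ratio of 6.61 ± 0.79 (SD, n = 2). The ratio of receptor reads was 101 (87.9 to 116) and 219 (189.7 to 254). In both libraries and on both scales the vascular gene was the higher of its kind, and each mean log2 ratio was far larger than the SD between the libraries. With 2 libraries no permutation test can pass 0.05, so no p-value is given. In bulk RNA, fewer cells of a type and less RNA per cell cannot be told apart.

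Receptor and pore of 1 channel cannot be ranked by level here, because the spans of Abcc9 and Abcc8 are mostly intron. Their ratio of reads can be followed between libraries, since length cancels. The library sizes cancel as well. Abcc9 had 1.63 reads per Kcnj8 read in IP1 (95% interval 1.60 to 1.67) and 1.89 in IP2 (1.86 to 1.93), a change of 1.16 times. Abcc8 had 0.21 reads per Kcnj11 read in IP1 (0.18 to 0.24) and 0.19 in IP2 (0.16 to 0.22), so that pair kept its ratio within counting error. The pore ratio Kcnj8 to Kcnj11 moved by 1.66 times between libraries and the receptor ratio Abcc9 to Abcc8 by 2.18 times. The ratio within a pair thus moved less than the ratio between the pairs.

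The difference between the libraries was then set against that of all genes. An exact binomial test (two-sided) of each gene's reads, with TMM-scaled library sizes and Benjamini-Hochberg adjustment over 17306 genes, compares 2 libraries of 1 group and holds counting error only. Kcnj8 and Abcc9 passed it on the IP2 side, as did 37.3% of all tested genes (75.6% passed on either side). Their adjusted p-values were below the smallest number the software holds. The ratio of IP2 over IP1 was 1.55 for Kcnj8 (1.51 to 1.58) and 1.79 for Abcc9 (1.76 to 1.82). None of the 4 genes differed by a ratio of 2 or more with an adjusted p under 0.05, against 17.4% of all tested genes, 7.18% on the IP2 side and 10.2% on the IP1 side. Kcnj11 had a ratio of 0.93 (0.85 to 1.01, adjusted p = 0.12 by the binomial test) and Abcc8 0.82 (0.67 to 1.01, adjusted p = 0.075 by the binomial test). Scaled by total gene counts instead of TMM, Kcnj11 and Abcc8 passed on the IP1 side, with adjusted p = 0.020 and 0.034 by the same binomial test.

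On the log2 scale the ratio was 0.63 for Kcnj8 and 0.84 for Abcc9, while the middle 50% of all tested genes ran from -0.34 to 0.33. A ratio at least as high was found in 13.97% of tested genes for Kcnj8 and in 9.59% for Abcc9. With the spread between libraries assumed to be a coefficient of variation of 0.1, edgeR's exact test gave adjusted p = 0.011 for Kcnj8 and 0.00037 for Abcc9. With 0.2 it gave adjusted p = 0.48 and 0.23 in edgeR, and neither gene passed. Genes with long spans were slightly higher in IP2. The median log2 ratio ran from -0.11 in the tenth of genes with the shortest spans to 0.093 in the tenth with the longest. It was -0.085 in the tenth that holds Kcnj8 and 0.061 in the tenth that holds Abcc9, so both genes lay above the median of genes of like span.

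**Figure D2:**
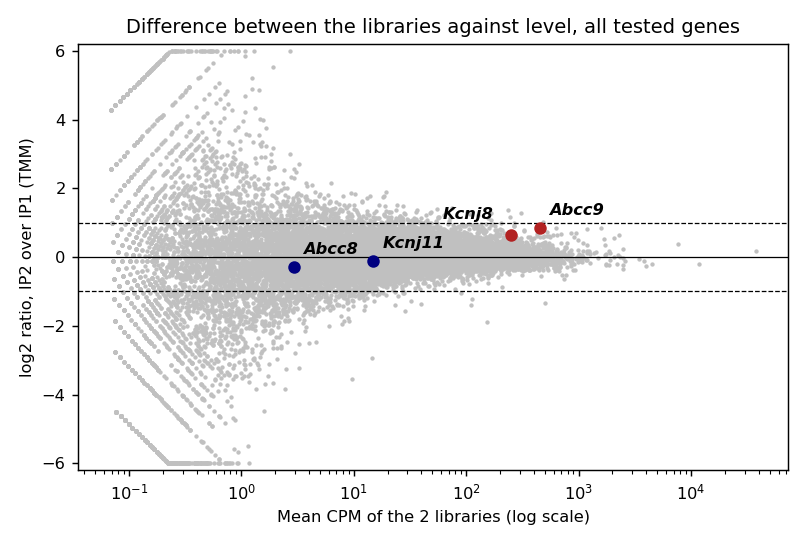
Log2 ratio of IP2 over IP1 against mean CPM (log axis) for 17306 tested genes (grey, values beyond 6 drawn at 6), with the 4 channel genes named and dashed lines at a ratio of 2. Kcnj8 (0.63) and Abcc9 (0.84) lie in the upper part of the cloud below the dashed line, and Kcnj11 (-0.11) and Abcc8 (-0.28) lie within it.

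Vascular cell markers were checked beside these values. All 10 pericyte and 9 of 9 pan-mural markers reached 10 CPM in both libraries, led by Vtn (396 CPM in IP1, 585 in IP2) and Higd1b (241 and 164) for pericytes and Rgs5 (4841 and 4061) and Heyl (920.1 and 567) for mural cells as a whole. Of the 10 pericyte markers, 6 passed on the IP2 side and 4 on the IP1 side, where 37.3% and 38.3% of all tested genes did. Their median log2 ratio was 0.21, against -0.0070 over all tested genes, and their summed level was 1230 CPM in IP1 and 1425 in IP2. Of the pan-mural markers, 4 passed on the IP2 side and 5 on the IP1 side, with a median of -0.12 and a summed level of 6540 and 5508 CPM. Vtn (log2 ratio 0.61), Atp13a5 (0.62), Anpep (0.71) and Mcam (0.85) differed between the libraries about as Kcnj8 and Abcc9 did, Cspg4 (0.97) and Notch3 (1.32) by more, and the other 13 by less or in the other direction. Of these, those other than Vtn were named after their values were seen. All 8 markers of arterial smooth muscle, led by Myl9 (945 and 764 CPM) and Mylk (509 and 459), reached 10 CPM. Their median log2 ratio was 0.064, and 4 passed on the IP2 side and 3 on the IP1 side.

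Markers of other cells were present too. For the counts that follow, 37.3% of all tested genes passed on the IP2 side and 38.3% on the IP1 side, and the median log2 ratio of all was -0.0070. Of 8 astrocyte markers, 6 passed on the IP2 side and 1 on the IP1 side (median log2 ratio 0.65), and their summed level was 2144 CPM in IP1 and 3159 in IP2, led by Slc1a2 (1158 and 2028) and Aldoc (433 and 409.9). All 7 perivascular fibroblast markers passed on the IP2 side (median 0.57, summed 2431 and 3583 CPM), led by Apod (1712 and 2446) and Pdgfra (326 and 632). Of 8 oligodendrocyte precursor markers, 6 passed on the IP2 side and 2 on the IP1 side (median 0.42, summed 2524 and 3128 CPM), led by Olig1 (985 and 913), with Pdgfra, shared with the fibroblast list, next, and Cspg4 shared with the pan-mural list. Of 7 oligodendrocyte markers, 5 passed on the IP2 side and 2 on the IP1 side (median 0.37, summed 2062 and 2223 CPM), with Cnp (477 and 432) among the highest. None of these lists had a marker at 0. The part of these cells in the higher reads of Kcnj8 and Abcc9 in IP2 was not tested.

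Neuronal markers, set beside Kcnj11 and Abcc8, were abundant, with list medians near 0. The part of neurons in the reads of Kcnj11 and Abcc8 was not tested. The counts again stand beside 37.3% of all tested genes on the IP2 side and 38.3% on the IP1 side. The 7 pan-neuronal markers had a median log2 ratio of 0.096 and a summed level of 15054 CPM in IP1 and 13175 in IP2, led by Snap25 (12770 and 10795) and Syt1 (699 and 723). Of them, 4 passed on the IP2 side and 3 on the IP1 side. The 6 excitatory markers had a median of -0.088 (2 on the IP2 side, 3 on the IP1 side, summed 1524 and 1369 CPM), led by Camk2a (1156 and 1008) and Nrgn (94.6 and 103). The 7 inhibitory markers had a median of -0.039 (3 and 4, summed 998 and 984 CPM), led by Gad2 (680 and 639) and Gad1 (126 and 113). Beta cell genes were at or near 0. Ins1, Ins2, Iapp and Pdx1 had no read. Slc2a2 had 17 reads in IP1 and 0 in IP2. The summed level of the 7 was 1.12 CPM in IP1 and 0.58 in IP2. Endothelial markers were summed at 66.6 CPM in IP1 and 61.7 in IP2, with 1 of 9 at 10 CPM in both, Emcn (42.1 and 33.3). Flt1 (9.89 and 12.03) was next. Microglial markers were summed at 27.0 and 31.0 CPM, with 0 of 7 at 10 CPM in both and Tmem119 (9.46 and 13.6) and P2ry12 (6.66 and 5.72) the highest. Gdnf, whose regulatory sequences drive the tag, was at 10.2 and 7.84 CPM, and Rpl10a at 4.37 and 3.74. Reads with more than 1 alignment were left unassigned. How many of them came from Rpl10a was not tested, so its level is uncertain.

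**Figure D3:**
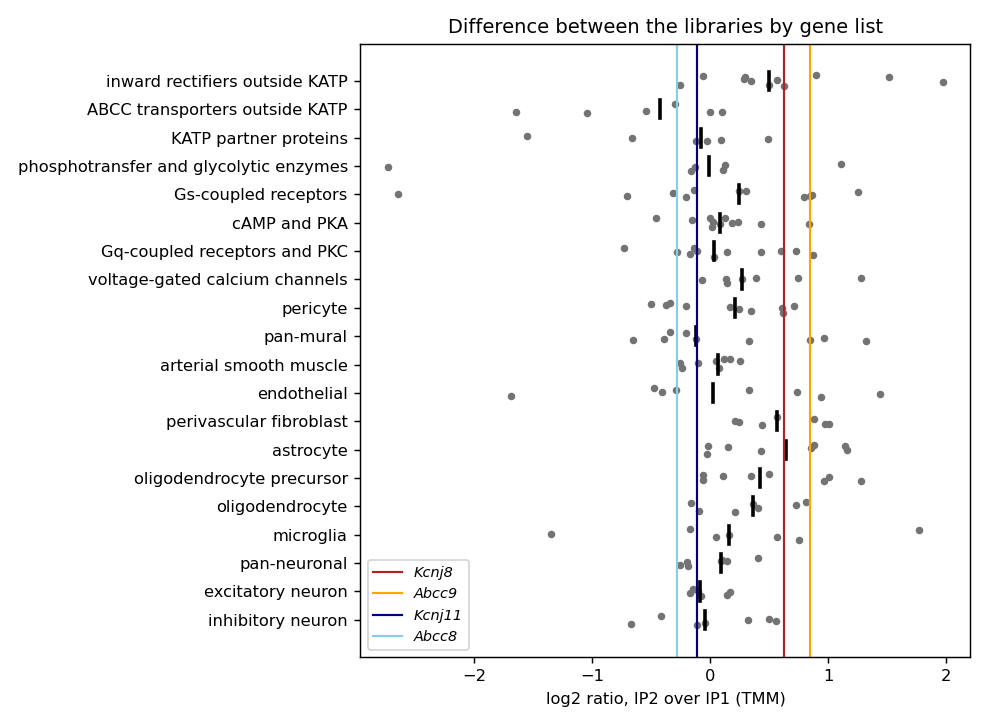
Log2 ratio of IP2 over IP1 of each tested gene (points, spread vertically for clarity) by gene list, with the list median as a black bar and the 4 channel genes as vertical lines. Only lists with at least 5 tested genes are drawn. Pericyte, pan-mural and inhibitory neuron markers fall on both sides of 0, and all perivascular fibroblast markers lie above it.

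Within its own family, each vascular gene took the most reads. Among 15 inward rectifier potassium channel genes, Kcnj8 had 33.8% of the reads in IP1 (95% interval 33.3 to 34.3%) and 35.7% in IP2 (35.3 to 36.0%), and ranked 1 in both. Kcnj11 had 2.63% (2.48 to 2.80%) and 1.67% (1.57 to 1.77%). The next highest were Kcnj10, a glial channel that clears potassium (130.1 CPM in IP1, 234 in IP2), Kcnj3, a G protein-gated channel (81.0 and 74.9), and Kcnj16, a partner of Kcnj10 (57.4 and 85.4). The strong inward rectifiers Kcnj2 (15.6 and 19.2 CPM) and Kcnj12 (26.0 and 35.4), known in arteries for their response to extracellular potassium, took fewer reads than Kcnj8, and were named after their values were seen. Kcnj1 and Kcnj15 had no read. Of the 11 tested genes outside the channel, 9 passed on the IP2 side and 2 on the IP1 side, against 37.3% and 38.3% of all genes. Kcnj5 (0.58 and 2.23 CPM) and Kcnj14 (0.17 and 0.48, from 11 and 35 reads) did so on the IP2 side with a ratio of at least 2. Of all tested genes, 7.18% did. Kcnj10 and Kcnj16 had log2 ratios of 0.90 and 0.62, beside 0.63 for Kcnj8.

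Among 11 ABCC genes, Abcc9 had 90.6% of the reads in IP1 (90.2 to 91.0%) and 95.3% in IP2 (95.1 to 95.5%). Abcc8 had 0.90% (0.79 to 1.03%) and 0.44% (0.38 to 0.50%). The next highest outside the channel were Abcc5 (16.9 CPM in IP1, 16.3 in IP2) and Abcc1 (7.96 and 6.27), which export organic anions and conjugates, and Abcc4 (3.47 and 1.62), an exporter of cyclic nucleotides and other anions. Abcc12 had no read, and Abcc2 and Abcc6 had 1 and 2 reads in IP1 and 0 in IP2. Of the 6 tested genes outside the channel, 0 passed on the IP2 side and 4 on the IP1 side, among them Abcc3 and Abcc4 with a ratio of at least 2. Of all tested genes, 37.3% passed on the IP2 side and 38.3% on the IP1 side, 10.2% there with a ratio of at least 2. The median log2 ratio of the 6 genes was -0.42, against 0.84 for Abcc9. Of the mitochondrial KATP genes, the receptor-like Abcb8 was at 13.0 and 23.0 CPM and the pore Ccdc51 at 3.42 and 0.89. Abcb8 was higher in IP2 (log2 ratio 0.87) and Ccdc51 in IP1 (-1.88), both past the adjusted p and the second with a ratio of at least 2.

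**Figure D4:**
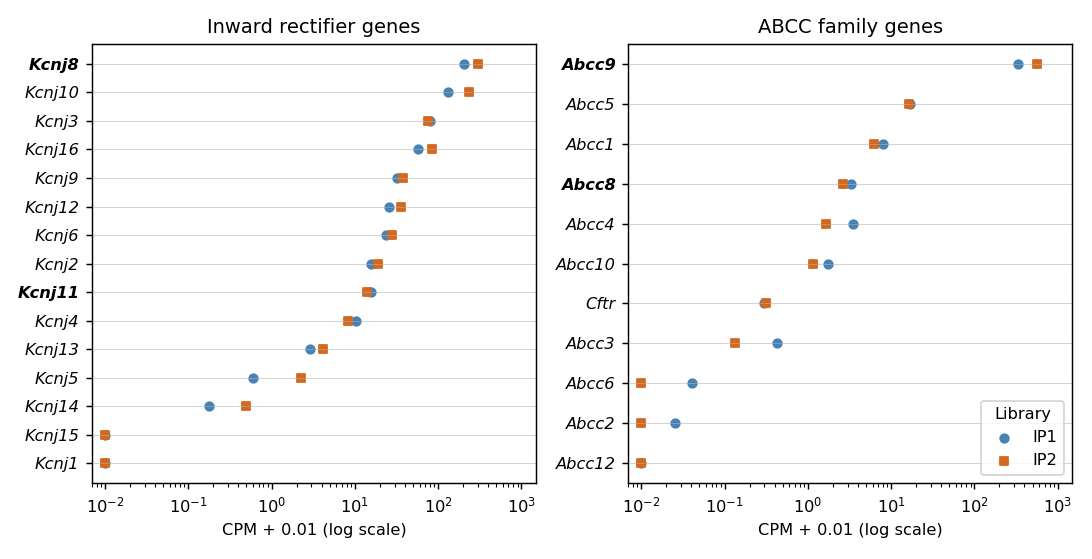
CPM plus 0.01 (log axis) of the inward rectifier and ABCC genes in IP1 (circles) and IP2 (squares), ordered by mean. Kcnj8 and Abcc9 head their families in both libraries, and Kcnj11 and Abcc8 lie in the middle.

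The counted neighbours on the chromosome differed between the libraries to unlike degrees. Around the vascular pair, Ldhb, Cmas, St8sia1, Gys2 and 5330439B14Rik passed on the IP2 side, as did 37.3% of all tested genes. Gys2 and 5330439B14Rik did so with a ratio of at least 2, as did 7.18% of all tested genes. Gm7457, with 7 reads in IP1 and 5 in IP2, did not pass. On chromosome 6, Ldhb, a lactate dehydrogenase gene on the Kcnj8 side, was at 347 CPM in IP1 and 352 in IP2 (log2 ratio 0.070), and Cmas, a sialic acid gene on the Abcc9 side, at 93.3 and 98.0 (0.12). St8sia1, a ganglioside synthesis gene farther out, was at 88.9 and 129 CPM (0.58). Gys2, the liver glycogen synthase gene, had 0 reads in IP1 and 24 in IP2. The noncoding gene 5330439B14Rik lies within the span of Abcc9 and had 0 and 17 reads. Reads that match both were not assigned, and the strand setting is not given, so some Abcc9 reads may be missing. On chromosome 7, Nomo1 was at 33.6 and 47.8 CPM (0.56) and also passed on the IP2 side. Ccdc114, at 3.67 and 3.84 CPM (0.12), did not pass. Abcc6, Ush1c and Otog had at most 6 reads per library. The noncoding gene Gm51481 overlaps the span of Abcc8 in RefSeq.

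**Figure D5:**
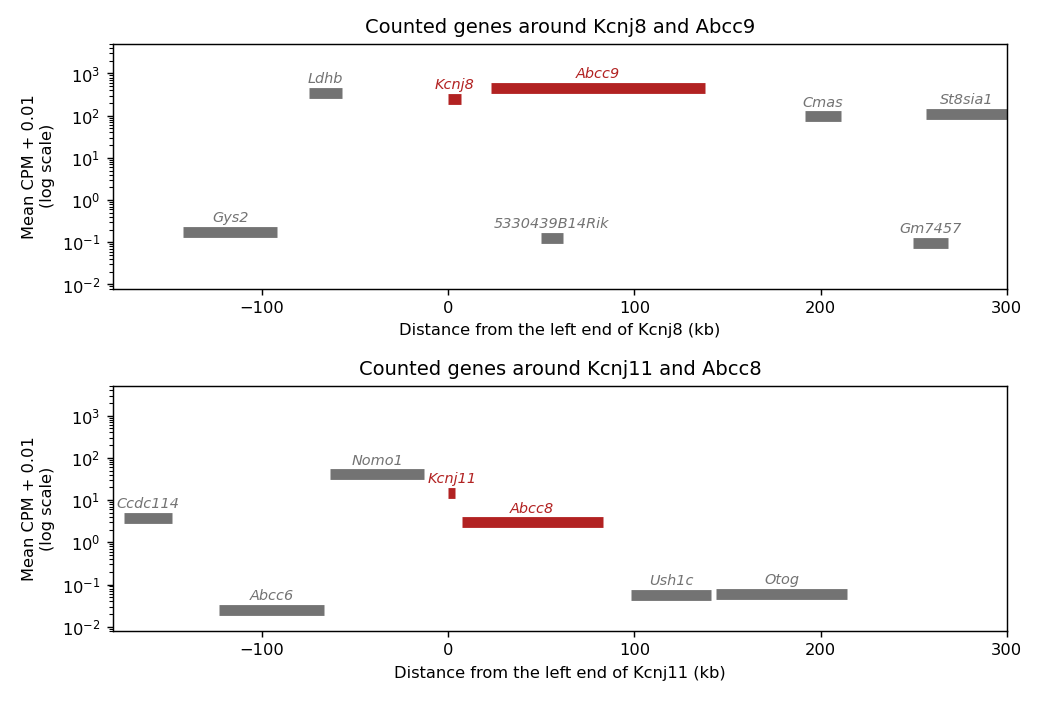
Mean CPM plus 0.01 of the 2 libraries (log axis) of each counted gene around the vascular pair (upper panel) and the other pair (lower panel), drawn over its span as distance in kb from the left end of the pore gene, and cut at the panel edge. Bars in red are the channel genes. Kcnj8 and Abcc9 stand at similar read levels to Ldhb, and Kcnj11 and Abcc8 stand between Nomo1 and the nearly unread Ush1c.

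Genes around the channel were taken from lists of known partners and signals. Of 77 pathway genes, 46 reached 10 CPM in both libraries, against 28.3% of all genes. The lists were chosen with earlier results of these data known. Of the 32531 genes listed, 18883 had a read in IP1 and 17964 in IP2. These shares are therefore not like for like, and no enrichment is read from them. Proteins that bind or modulate KATP channels were led by Ank2, an ankyrin that anchors Kir6.2 (484 CPM in IP1, 429 in IP2), Akap5, a kinase anchor (182 and 172), and Cav1, of caveolae, where vascular KATP channels reside (95.9 and 130.5). Rapgef4, a cAMP sensor that binds SUR1, was at 100.3 and 104 CPM, and was named after its values were seen. Trpm4, a cation channel reported to join SUR1, was at 5.72 and 1.88 CPM and was higher in IP1 with a ratio of at least 2. Of these 6 genes, 2 passed on the IP2 side and 3 on the IP1 side (median log2 ratio -0.074), beside 37.3% and 38.3% of all tested genes. Enzymes that set ATP and ADP near the membrane were led by Ckb, brain creatine kinase (400.0 and 418 CPM), Ldha (319 and 275) and Ckmt1 (55.7 and 49.2). Of 6, 3 passed on each side (median -0.0068). Gapdh, at 1.86 and 3.88 CPM, and Ckm, at 0.32 and 0.041, differed by a ratio of at least 2 in opposite directions. Gapdh has many pseudogenes, and reads with more than 1 alignment were left unassigned, so its level is uncertain.

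Hormones and transmitters that raise cAMP open vascular KATP channels through protein kinase A. The Gs-coupled receptor list was led by Adcyap1r1, the PACAP receptor (116 CPM in IP1, 200.4 in IP2), Calcrl, the CGRP and adrenomedullin receptor (87.8 and 101), and Adora2a, an adenosine receptor (49.3 and 43.3). Of 11 genes, 6 passed on the IP2 side and 3 on the IP1 side (median log2 ratio 0.25), where 37.3% and 38.3% of all tested genes did. Adora2b, the other Gs-coupled adenosine receptor, was higher in IP2 (3.87 and 8.90 CPM) with a ratio of at least 2. Downstream, Gnas (2381 and 2303 CPM), the regulatory subunit gene Prkar1a (1005 and 986) and the catalytic subunit gene Prkacb (682 and 664) were the highest of 11. Of these, 6 passed on the IP2 side and 2 on the IP1 side, none with a ratio of 2, and the median log2 ratio was 0.085.

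Vasoconstrictors close the channel through Gq and protein kinase C. That list was led by the G protein gene Gnaq (533 CPM in IP1, 477 in IP2) and the kinase genes Prkce (433 and 461) and Prkca (233 and 205). Of 11 tested genes, 5 passed on each side, none with a ratio of 2, and the median log2 ratio was 0.035. Voltage-gated calcium channels, which close when KATP current hyperpolarizes the membrane, all reached 10 CPM in both libraries. Cacna1c, the pore of the vascular L-type channel, was at 74.98 and 94.9 CPM, with the subunit genes Cacnb2 (80.9 and 94.2) and Cacnb3 (80.3 and 85.8). Of 7, 6 passed on the IP2 side and 1 on the IP1 side (median 0.27), and Cacna1d (16.7 and 39.3 CPM) had a ratio of at least 2. Of all tested genes, 37.3% passed on the IP2 side, 7.18% with such a ratio, and 38.3% on the IP1 side.

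The genes nearest to each channel gene in level and ratio were found by the distance of log2(CPM + 0.1) over the 2 libraries, a measure that 2 values make weak. Nearest to Abcc9 were Ankrd11 (330 CPM in IP1, 573 in IP2), Cntn1 (330.3 and 547) and Sparc (343 and 588), and 7 genes lay within a distance of 0.25. Nearest to Kcnj8 were Sdc3 (191 and 296 CPM), Gria3 (214 and 296) and Lamp1 (214 and 304), of 31 within that distance. Around Kcnj11 there were 325 such genes, headed by Rpp21, Mtfr1 and 9330182L06Rik, and around Abcc8 112, headed by Dyrk3, Irf8 and 5430416N02Rik.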

How the data were processed

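STAR 2.0.0e, the mm10 genome and HTSeq are named in the submitters' processing notes; annotation and strand setting: not given in the sources used here. The authors deposited 1 raw count per gene symbol and library. Summary lines and a row named unknown (1 read in IP1) were left out, and reads in genes were 58.1% and 57.7% of all listed reads. CPM used the total of gene counts. The libraries were compared with a two-sided exact binomial test on TMM-scaled sizes (edgeR 4.0.16) over genes with 10 or more reads, and called at an adjusted p under 0.05, with a ratio of at least 2 where stated. Log2 ratios used a prior of 0.5 counts. The procedure was tested on simulated counts that held counting error only, which is what the binomial test assumes. Spread between libraries beyond counting error was not simulated, so that check says nothing about it. The plan named exon or coding length. Neither was used here, so gene span from RefSeq GRCm38.p6 took its place after the files were seen. Named genes were the 4 channel genes, Gdnf and Rpl10a, the 3 highest, called and unread genes of each pathway list, the 2 highest and unread of each marker list, the 3 nearest genes and chromosomal neighbours. Some genes that this rule names are left out of the text. The genes and lists were chosen with earlier results of these data known. Software was Python 3.11.15 with scipy 1.17.1, pandas 2.3.3 and numpy 2.4.6, and R 4.3.3 with DESeq2 1.42.0 for other size factors.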

Additional observations from a re-analysis of the deposited data

How the results depend on the processing

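Of 61 values recomputed under another setting, 55 counted as kept and 0 reversed. A test result was kept if its direction and side of the threshold stayed the same. Levels and ratios were kept if they moved by less than the SD between the libraries. With 2 libraries, leaving 1 out always moves a mean by less than that SD, so those values could only be kept. Numbers of genes had a wider margin. With an assumed coefficient of variation of 0.2, 1232 genes called higher in IP1 in place of 1763 still counted as kept. Without length scaling, the log2 ratio of Kcnj8 over Kcnj11 was 4.05. With an assumed coefficient of variation of 0.2 in the edgeR exact test, the log2 ratios of Kcnj8 (0.63, adjusted p = 0.48) and Abcc9 (0.84, adjusted p = 0.23) no longer passed, and 794 genes were called higher in IP2 in place of 1242. Scaled by total gene counts, Kcnj11 (-0.16, adjusted p = 0.020) and Abcc8 (-0.33, adjusted p = 0.034) passed the binomial test. Leaving out 1 library gave 202 to 302 CPM for Kcnj8, 330.0 to 571 for Abcc9, 14.1 to 15.7 for Kcnj11 and 2.61 to 3.28 for Abcc8. The log2 ratio per kb of span was then 2.86 to 3.59 for the pores and 6.05 to 7.17 for the receptors. The planned exon and coding lengths were not run, and the test between the libraries cannot leave one out. No paired analysis was possible because both libraries belong to 1 group. The 214 and 190 reads of Abcc8 limit its precision.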
